A study of Mus musculus with 6 samples.

Results

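The genes described here are 35 mouse genes of fatty acid and triglyceride synthesis, out of 22609 genes listed in each sample. They were chosen by name for the step they serve, with earlier results of these data known. They cover the supply of cytosolic acetyl-CoA and NADPH, the making of palmitate, its elongation and desaturation, the activation of fatty acids, the building of triglyceride on glycerol 3-phosphate, and 3 regulators of these steps. RNA was sequenced from primary adipocyte cultures of inguinal white adipose tissue (iWAT), in 3 samples that carried a control vector (control) and 3 that overexpressed miR-182-5p (miR-182-5p). Per the labels, the cells of both groups were stromal vascular cells of the inguinal fat of male C57BL6 mice aged 3 weeks, differentiated in culture and electroporated. The methods of the study name a lipid reagent, a mimic control and another mouse age for its mimic experiments. The labels do not say whether the samples came from separate animals or cultures, so p-values measure only the spread between these samples, which may be technical. The libraries held poly(A) RNA, which leaves out mature miRNAs, so the level of miR-182-5p itself was not measured.

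In adipocytes, glucose carbon leaves the mitochondria as citrate, which is cleaved in the cytosol to acetyl-CoA. Acetyl-CoA carboxylase and fatty acid synthase turn acetyl-CoA into palmitate, with NADPH as the reductant, and elongases and desaturases then lengthen it or add double bonds. Acyl-CoA synthetases activate fatty acids, and acyltransferases, lipins and diacylglycerol acyltransferases join them to glycerol 3-phosphate to form the triglyceride of the lipid droplet. SREBP-1c and ChREBP are the transcription factors best known for driving the genes of this pathway in response to insulin and glucose, and many of the enzymes are used in textbooks as signs of a mature white adipocyte.

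A miRNA pairs with messages mainly through its seed, bases 2 to 8, and the sequence is shown because a match to the seed in a 3′-UTR is the usual first look for a direct link. Mature miR-182-5p lies at chr6:30165962-30165986 (GRCm38.p6, minus strand), and capitals mark the seed in the RefSeq sequence.
miR-182-5p: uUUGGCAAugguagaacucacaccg
The 7-base match TTGCCAA occurred in the longest annotated 3′-UTR (GENCODE M21) of 2 of 34 synthesis genes tested for expression (5.88%), against 13.9% of the 12507 tested genes with an annotated 3′-UTR. The 8-base match with a further A was found in 0 of the 34, against 5.71% of those genes. The 2 matches were in Elovl1, at chr4:118432833-118432861 (plus strand, base 725 of an 834-base 3′-UTR), and in Slc25a1, at chr16:17925237-17925265 (minus strand, base 559 of 590), both on GRCm38. Capitals mark the match.
Elovl1: aaaaaggggggTTGCCAAgtctagctcta
Slc25a1: tcaggaccaccTTGCCAAggagaataaac
Of these, Elovl1 rose (log2 fold change 0.10) and Slc25a1 fell (-0.39) with miR-182-5p. A match of letters is a description of the message and does not show binding. The methods of the study give, with the PCR assays, a mature sequence with another seed under this name, and the matches counted here are to the RefSeq miR-182-5p only.

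The question of the comparison was how expression differed between the miR-182-5p and control cultures. Gene reads per sample ranged from 25869810 to 26484794 in control and from 25960631 to 28796712 with miR-182-5p. Levels are given as CPM, the reads of a gene scaled to the size of its library with TMM factors. Fold changes, their standard errors (SE) and adjusted p-values come from edgeR's quasi-likelihood fit, with p-values adjusted by the Benjamini-Hochberg method across the 13117 genes that had enough reads. A gene is said to have risen or fallen where its adjusted p was under 0.05, and to have passed both cutoffs where its fold change was also at least 1.5.

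Of the 35 genes, 34 had enough reads for the test, and 28 of these passed the adjusted p (82.4%, against 46.7% of all 13117 genes). Of the 34, 23 fell (67.6%, against 23.5% of all genes), 5 rose (14.7%, against 23.2%) and 6 did not pass. Both cutoffs were passed by 7 of the 34 (20.6%), against 7.45% of all genes. The 6 that passed in the lower direction were Me1, Fasn, Acsl1, Dgat1, Dgat2 and Thrsp (17.6%, against 5.48% of all genes), and the 1 in the higher direction was Fads3 (2.94%, against 1.97%). The median log2 fold change of the 34 was -0.28, while that of all genes was -0.0043. The 3 samples of one group lay wholly below or above those of the other for 54.8% of all genes. Among the 34 they did so for 24 in the lower direction (70.6%, against 27.5% of all genes) and for 6 in the higher direction (17.6%, against 27.3%). Elovl7 was left out of the test, with 0 to 4 reads in every sample.

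Summed over the 35 genes, the pathway took 4.08% to 4.40% of gene reads in control and 3.16% to 3.76% with miR-182-5p. The mean of the miR-182-5p samples was 0.805 of the control mean on the CPM scale. Scd1 weighs most in this sum, with 19925 of the control mean of 42879 CPM, and had a ratio of 0.888 by itself. In bulk RNA, fewer adipocytes and less of these messages per adipocyte cannot be told apart. The summed level of 13 adipocyte markers went from 15376 to 16157 CPM in control to 11213 to 12539 CPM with miR-182-5p, a ratio of 0.759. Of these markers 9 of 13 genes fell (69.2%, against 23.5% of all genes) and 2 rose (15.4%, against 23.2%). The 2 with the most reads, Lpl and Fabp4, fell by 0.47 and 0.68 on the log2 scale. Plin4 and Lep rose by 0.50 and 0.37, and Plin1 and Lipe did not pass. The part of the adipocyte markers in the results was not tested.

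**Figure D1:**
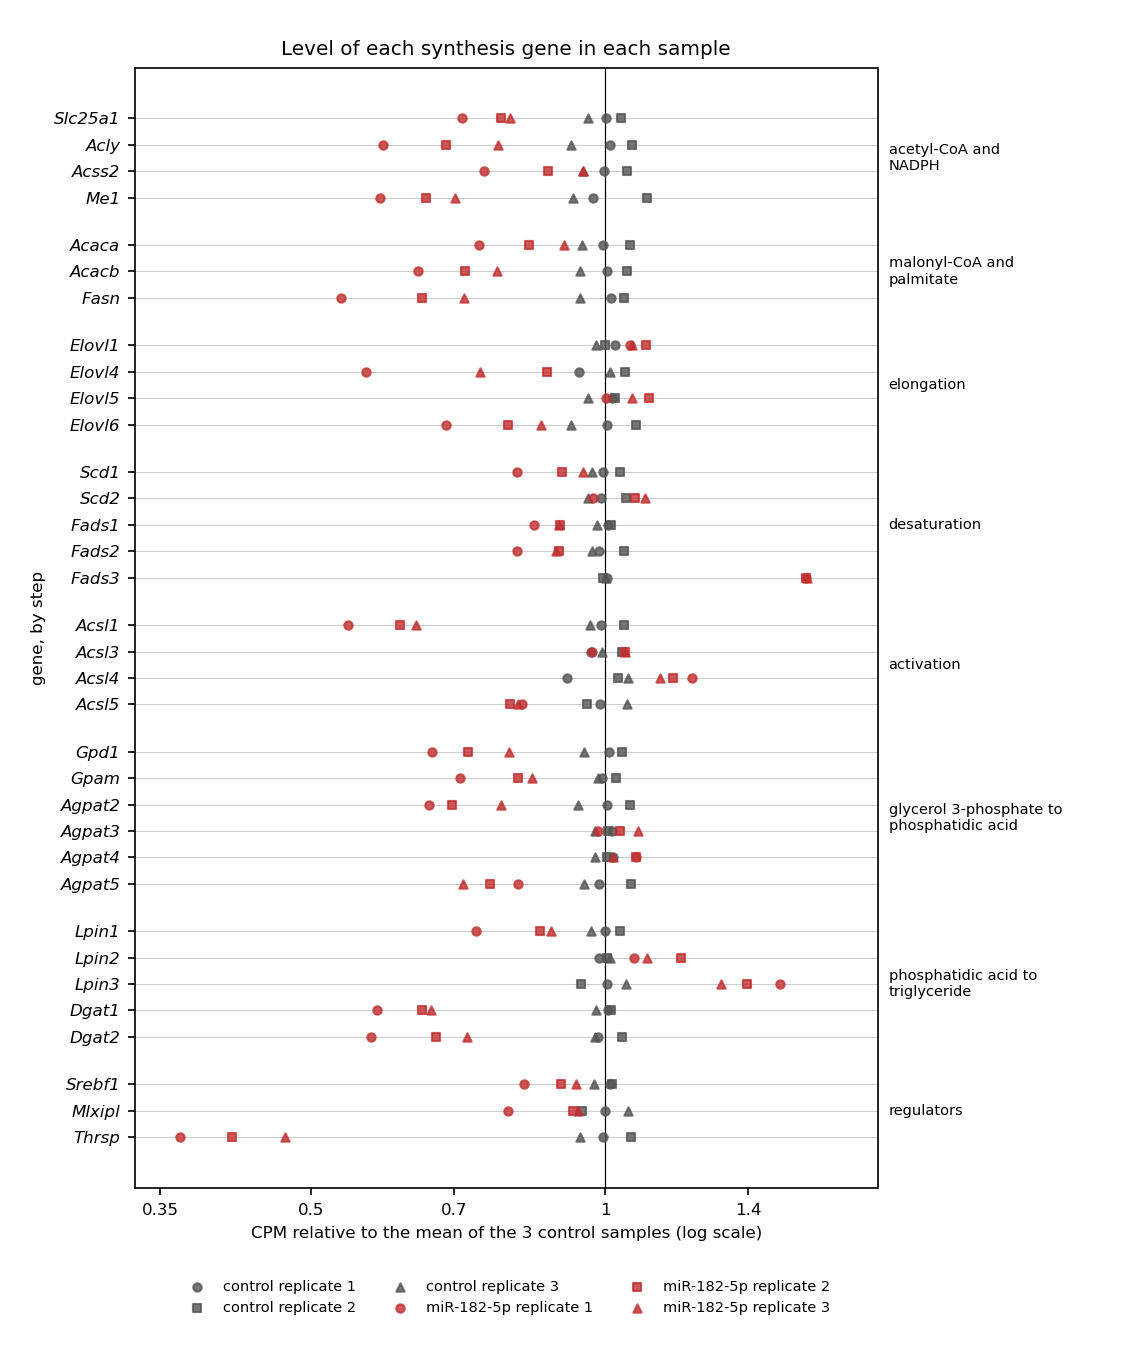
Each point is 1 of 6 samples, plotted as CPM relative to the mean of the 3 control samples on a log scale, with the 34 tested genes in rows grouped by step. In the rows of the 23 genes that fell, all 3 miR-182-5p samples sit to the left of all 3 control samples, while Fads3 and Lpin3 sit to the right.

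The genes that supply cytosolic acetyl-CoA and NADPH all fell, 4 of 4, with a median log2 fold change of -0.47. Me1, malic enzyme 1, which makes NADPH in the cytosol, was at 586, 665 and 559 CPM in control and at 355, 395 and 423 CPM with miR-182-5p. Every miR-182-5p sample was below every control sample, and the log2 fold change was -0.63 (SE 0.062, adjusted p = 1.84e-06). Acly, ATP citrate lyase, which cleaves citrate into acetyl-CoA, went from 2022 ± 146 CPM (SD, n = 3) to 1385 ± 186 CPM (SD, n = 3), a log2 fold change of -0.55 that was just short of the 1.5-fold cutoff. Slc25a1, the mitochondrial citrate carrier, fell by 0.39 on the log2 scale. Acss2, which makes acetyl-CoA from acetate, had the smallest change of the 4, at -0.22 (adjusted p = 0.0103, and 0.0621 without control replicate 2). Of the 50-base stretches of the longest Me1 transcript, 26.5% also occur in another gene, chiefly Gm7049.

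All 3 genes that turn acetyl-CoA into palmitate fell, with a median log2 fold change of -0.49. Fasn, fatty acid synthase, was at 9246, 9550 and 8601 CPM in control and at 4898, 5923 and 6543 CPM with miR-182-5p. The groups were far apart relative to their spread, although the miR-182-5p samples differed more among themselves (SD 831 CPM) than the control samples (SD 485 CPM), and the log2 fold change was -0.66 (SE 0.077, adjusted p = 9.15e-06). The gene alone took 0.852% to 0.942% of gene reads in control and 0.497% to 0.660% with miR-182-5p.

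Acetyl-CoA carboxylase, which makes malonyl-CoA, has 2 forms, Acaca for synthesis and Acacb at the mitochondrion, where malonyl-CoA blocks fatty acid entry. Acacb was at 179, 188 and 169 CPM in control and at 115, 128 and 139 CPM with miR-182-5p, a log2 fold change of -0.49 (SE 0.055, adjusted p = 6.31e-06). Acaca was at 475, 506 and 452 CPM in control and at 354, 399 and 433 CPM with miR-182-5p, a log2 fold change of -0.27 (SE 0.058, adjusted p = 0.00143). Neither pair of groups overlapped, and the highest miR-182-5p sample of Acaca came close to the lowest control sample. Of the 50-base stretches of the longest Acaca transcript, 52.6% also occur in another annotated gene, chiefly the processed pseudogene Gm5182. Alignments that were not unique were tallied apart from the genes (19363264 to 21673840 per sample), so shared reads may be missing from the Acaca count.

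The elongases were mixed. Elovl6, which lengthens palmitate to stearate, was at 113, 121 and 104 CPM in control and at 77.4, 89.5 and 96.7 CPM with miR-182-5p, so that all 3 miR-182-5p samples were lower, and it fell by 0.36 on the log2 scale (SE 0.067, adjusted p = 5.80e-04). Elovl1, an elongase of long saturated chains, rose slightly, with a log2 fold change of 0.10 (SE 0.030, adjusted p = 0.0110, and 0.0572 without control replicate 3). Elovl5, which acts on polyunsaturated chains, did not pass, with a log2 fold change of 0.08 and an interval of 2 SE from 0.0035 to 0.16. Elovl4, for very long chains, was low at 34 to 56 reads per sample and did not pass either, at -0.46 with an interval from -0.83 to -0.095 (adjusted p = 0.0526, and 0.0306 without miR-182-5p replicate 2). Elovl5 had an adjusted p of 0.103, and of 0.0117 without miR-182-5p replicate 1.

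The desaturases held both the gene with the most reads of the pathway and the gene that rose most. Scd1, stearoyl-CoA desaturase 1, which puts the first double bond into stearate and palmitate, was at 19832, 20624 and 19320 CPM in control and at 16176, 18004 and 18908 CPM with miR-182-5p. Every miR-182-5p sample was below every control sample, but the change was small, at -0.17 on the log2 scale (SE 0.053, adjusted p = 0.0168), and its adjusted p was 0.0896 without control replicate 2 and 0.0588 with the replicate number as a block. Its paralog Scd2 overlapped between groups and did not pass, with a log2 fold change of 0.07 and an interval from -0.025 to 0.16 (adjusted p = 0.254, and 0.00707 without miR-182-5p replicate 1). Fads1 and Fads2, the desaturases that make polyunsaturated fatty acids, fell by 0.18 and 0.21 on the log2 scale.

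Fads3, the third gene of the fatty acid desaturase cluster, acts on sphingolipid bases rather than on the main polyunsaturated series. It was at 254, 252 and 254 CPM in control and at 406, 406 and 407 CPM with miR-182-5p. The samples within each group lay close together, and the groups were far apart, with a log2 fold change of 0.68 (SE 0.026, adjusted p = 7.56e-11). By p-value Fads3 ranked 51 of 13117 genes, the highest place of the 34. It lies at chr19:10041569-10060110 (GRCm38), and no other annotated gene overlaps its exons on either strand.

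Among the acyl-CoA synthetases, which activate fatty acids for further use, Acsl1 was the form with the most reads and fell. It was at 1048, 1106 and 1022 CPM in control and at 577, 653 and 678 CPM with miR-182-5p. All 3 miR-182-5p samples were below all control samples, with a log2 fold change of -0.74 (SE 0.049, adjusted p = 3.24e-08), second in size to Thrsp. An antisense transcript, Gm45244, overlaps 1039 of its 10483 exon bases. Acsl5 also fell, by 0.30 on the log2 scale. Acsl4, which prefers arachidonate, rose by 0.24 (SE 0.049, adjusted p = 0.00117). Acsl3, a form found on nascent lipid droplets, did not pass, at 0.03 with an interval from -0.069 to 0.13.

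Of the 6 genes that lead from glycerol 3-phosphate to phosphatidic acid, 4 fell, and the median log2 fold change was -0.37. Agpat2, the acyltransferase whose loss causes generalized lipodystrophy in people, was at 552, 582 and 516 CPM in control and at 363, 383 and 431 CPM with miR-182-5p. The groups did not overlap, and the log2 fold change was -0.49 (SE 0.054, adjusted p = 5.54e-06). Gpd1, which makes glycerol 3-phosphate, fell by 0.46 on the log2 scale, Agpat5 by 0.39, and Gpam, the mitochondrial first acyltransferase, by 0.34. Agpat3 and Agpat4, the other 2 acyltransferases listed, did not pass, at 0.05 (interval from -0.023 to 0.12, adjusted p = 0.0414 without miR-182-5p replicate 1) and 0.08 (interval from -0.022 to 0.18).

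The last steps, from phosphatidic acid to triglyceride, had both diacylglycerol acyltransferases among the genes past both cutoffs. Dgat1, which also re-esterifies fatty acids at the endoplasmic reticulum, was at 157, 158 and 152 CPM in control and at 90.9, 101 and 103 CPM with miR-182-5p. Its groups were well apart, with a log2 fold change of -0.66 (SE 0.042, adjusted p = 1.65e-08). Dgat2, the structurally unrelated enzyme that uses newly made fatty acids, was at 249, 263 and 247 CPM in control and at 146, 170 and 182 CPM with miR-182-5p. Its groups did not overlap either, and its log2 fold change was -0.61 (SE 0.059, adjusted p = 1.45e-06).

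The 3 lipins, which convert phosphatidic acid to diacylglycerol, split by form. Lpin1, the main lipin of adipose tissue, fell by 0.28 on the log2 scale. Lpin2 and Lpin3 rose, with log2 fold changes of 0.17 and 0.49, and the adjusted p of Lpin2 went from 0.0191 to 0.0578 without control replicate 1 and to 0.0887 without miR-182-5p replicate 2. Both were low in these cells, with Lpin3 at 14.3 ± 0.754 CPM (SD, n = 3) in control and 20.1 ± 1.41 CPM (SD, n = 3) with miR-182-5p.

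Of the regulators, the message of Thrsp differed most of all 34 genes. Thrsp (Spot 14) is a small acidic protein that tracks lipogenic activity and binds its relative Mid1ip1, an activator of acetyl-CoA carboxylase. It was at 608, 649 and 576 CPM in control and at 224, 254 and 287 CPM with miR-182-5p. The lowest control sample was above the highest miR-182-5p sample by a wide margin, and the log2 fold change was -1.26 (SE 0.067, adjusted p = 3.09e-09). This is a 2.40-fold lower level. Thrsp is at chr7:97412938-97417730 on GRCm38.

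The 2 transcription factors moved far less than that. Srebf1, which encodes SREBP-1a and SREBP-1c (counted together), was at 875, 879 and 843 CPM in control and at 715, 781 and 808 CPM with miR-182-5p. Its groups did not overlap and its log2 fold change was -0.17 (SE 0.040, adjusted p = 0.00272). Mlxipl, which encodes ChREBP, also changed by -0.17 (SE 0.055, adjusted p = 0.0189). Its adjusted p was 0.0543, 0.0953 and 0.0592 without control replicate 1, control replicate 3 or miR-182-5p replicate 1. Neither count bears on the processing or nuclear entry of these factors.

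**Figure D2:**
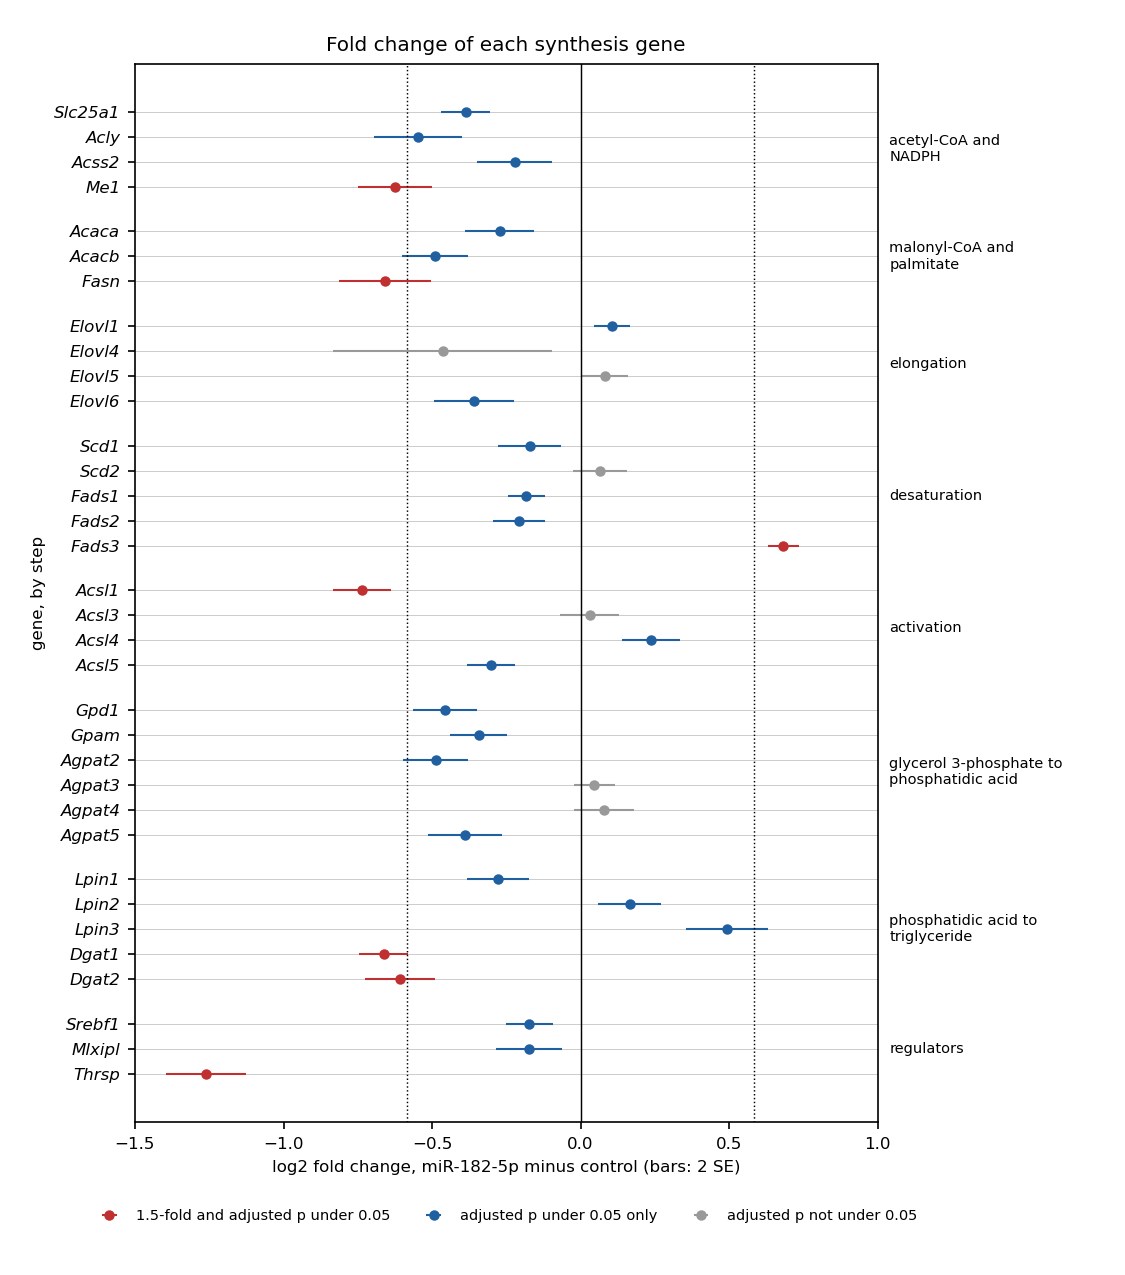
The log2 fold change (miR-182-5p minus control) of each of the 34 tested genes is a point with a bar of 2 SE to each side, in rows by step, and dotted lines mark the 1.5-fold cutoff. Thrsp stands alone at -1.26 and Fads3 lies farthest to the right at 0.68, while most points lie between 0 and the lower cutoff.

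By step, the summed CPM of the miR-182-5p samples was lowest relative to control for malonyl-CoA and palmitate, at a ratio of means of 0.645, and for activation, at 0.661. It was 0.704 for acetyl-CoA and NADPH supply, 0.706 for the regulators, 0.745 for phosphatidic acid to triglyceride and 0.754 for glycerol 3-phosphate to phosphatidic acid. The ratios nearest 1 were those of desaturation (0.911) and elongation (0.975). A sum weighs each gene by its reads, and the summed samples overlapped between groups for desaturation and elongation. The regulator sum fell mainly through Thrsp (mean 611 to 255 CPM). Srebf1 went from 866 to 768 CPM and Mlxipl from 106 to 94.2 CPM. No test of one step against another was made.

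In several gene families one form fell while another rose or did not pass. The share of one form, named for each family, in the reads of that family, a quantity that does not depend on library size, was compared by a two-sided exact permutation test of 3 samples against 3, for which the smallest p is 0.1. Of 8 shares, 7 did not overlap between groups, each at that p (0.114 after adjustment over the 8), so none could pass 0.05. Fads1 went from 36.3% ± 0.282 (SD, n = 3) of the reads of Fads1, Fads2 and Fads3 in control to 26.0% ± 0.494 with miR-182-5p, with Fads3 rising in the same sum. Acsl1 went from 84.8% ± 0.864 to 77.0% ± 1.70 of the 4 acyl-CoA synthetases, and Agpat2 from 68.9% ± 0.885 to 61.1% ± 1.44 of the 4 AGPATs. Elovl6 had 31.4% ± 1.23 of the elongase reads in control and 25.1% ± 1.80 with miR-182-5p, and Lpin1 had 84.8% ± 0.699 and 79.1% ± 1.75 of the lipin reads. The shift was small for Scd1, from 90.2% ± 0.120 to 88.6% ± 0.180 of the Scd1 and Scd2 reads. Acaca moved the other way, from 72.8% ± 0.144 to 75.6% ± 0.121 of the 2 carboxylases. The share of Dgat2 in the 2 DGATs overlapped between groups, at 61.9% ± 0.593 and 62.7% ± 1.13 (exact permutation p = 0.4).

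**Figure D3:**
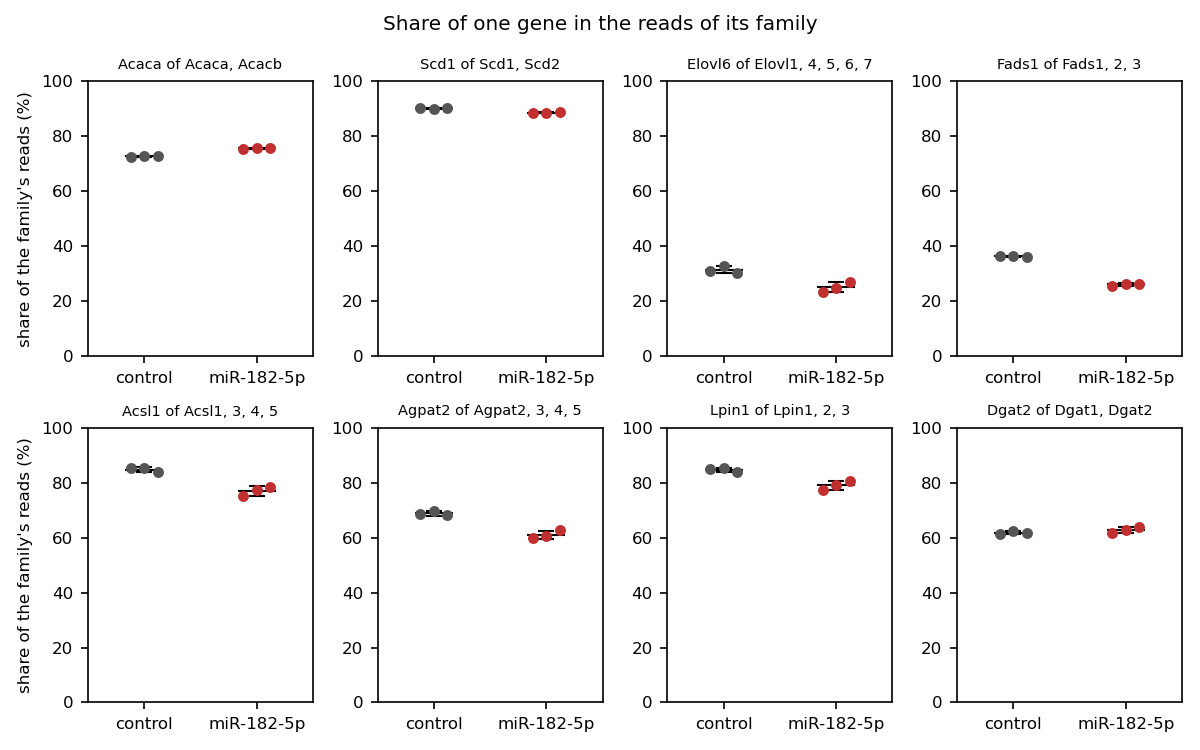
Each panel plots, for 3 control and 3 miR-182-5p samples, the percent of a family's reads that fell on 1 gene, with the mean and SD as a bar and whiskers on an axis from 0 to 100%. The points of the groups are separate in all panels but that of Dgat2, and the gap is widest for Fads1, at -10.2 percentage points.

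Levels of different genes can be compared only per length, and CPM per kb of exon (the union of annotated exons, which lowers genes with long rare exons) ranged over the pathway from 4073 for Scd1 to 0.0192 for Elovl7 in control. Fasn was next at 834, then Gpd1 at 709, Scd2 at 397 and Acly at 383 CPM per kb. With miR-182-5p, Fasn (529 CPM per kb) and Gpd1 (517 CPM per kb) were closer together than the SD between the Fasn samples, so their order there is not established. Thrsp went from 279 to 116 CPM per kb, where it could not be told from Slc25a1 (116 CPM per kb) within the spread of its samples. Fads3 went from 66.7 to 107 CPM per kb, from below Dgat2 (82.0) in control to above it (53.8) with miR-182-5p. There Fads3 was within the spread of Me1 (102 CPM per kb). Acsl1 went from 101 to 60.7 CPM per kb. Its exon union of 10483 bases is much longer than its longest transcript of 5676, so its order with Fads3 depends on the length used. Me1, Srebf1 and Slc25a1, at 157, 154 and 151 CPM per kb in control, were closer together than the SD between the Me1 samples, so their order there is not established.

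**Figure D4:**
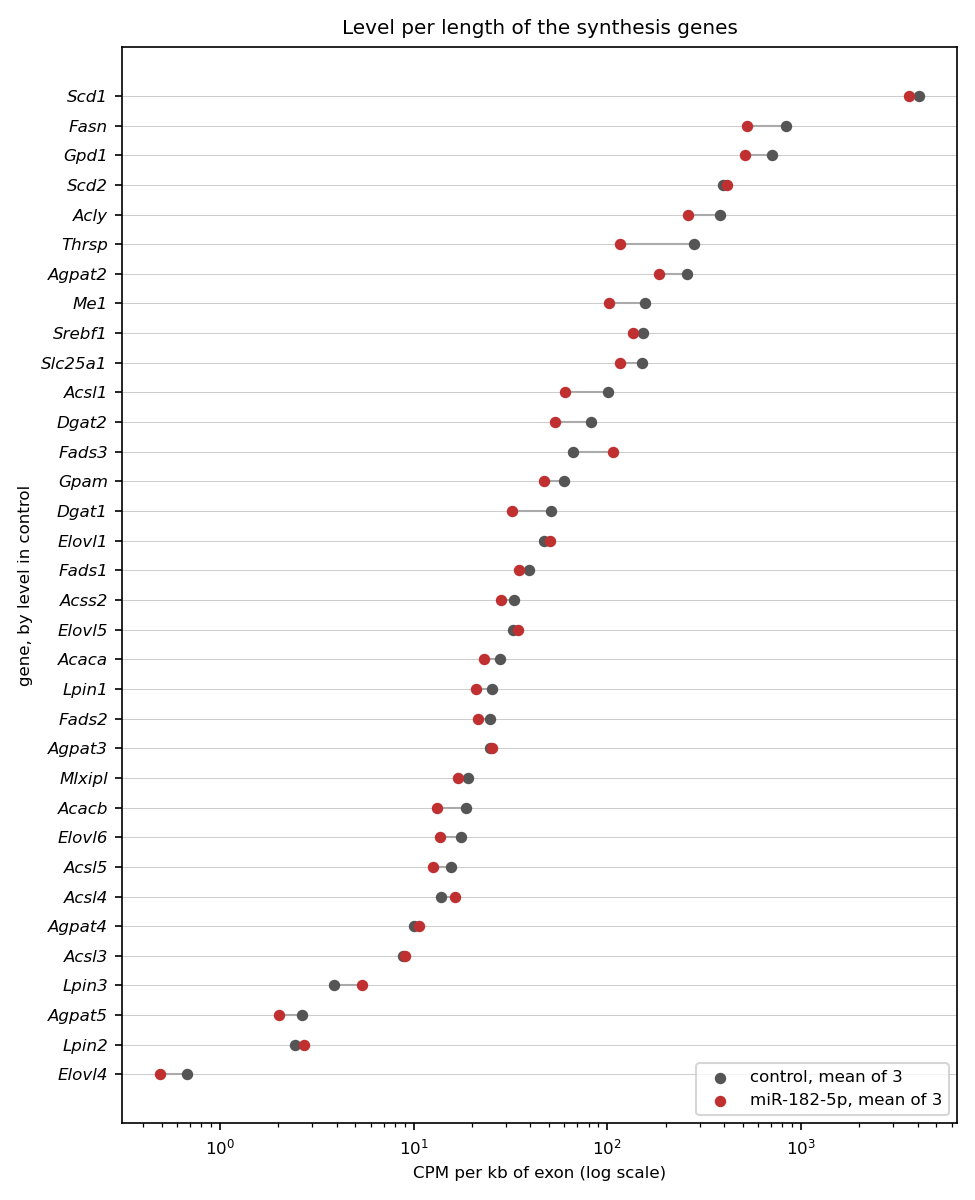
Mean CPM per kb of exon is plotted on a log scale for 34 genes in order of their control level, with a grey point for control, a red point for miR-182-5p and a line between them. Scd1 is far to the right at 4073 in control, and the line of Thrsp (279 to 116) is the longest to the left.

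The 3 miR-182-5p samples did not stand at one level. Of the 23 genes that fell, replicate 1 was the lowest of the miR-182-5p samples in 21 and replicate 3 the highest in 19, and control replicate 2 was the highest control sample in 21. The summed adipocyte markers had the same order, at 11213, 11934 and 12539 CPM in miR-182-5p replicates 1, 2 and 3, and at 15457, 16157 and 15376 CPM in control. Without miR-182-5p replicate 1, 4 genes passed both cutoffs in place of 7 (Fads3, Acsl1, Dgat1 and Thrsp), 3 of them lower, and 8 rose by adjusted p in place of 5. Without control replicate 2, 5 passed both cutoffs. Over all genes, 938 passed both cutoffs without miR-182-5p replicate 1 and 950 without control replicate 2, against 977 with all samples. The part of the adipocyte markers in this order was not tested.

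Markers of other cell types were set beside these values. Progenitor and fibroblast markers had a sum of 39725 to 41523 CPM in control and 34990 to 36190 CPM with miR-182-5p, mostly from 2 collagens. Of the control mean of 40450 CPM, Col3a1 made up 19711 and Col1a1 19248, while Dpp4 had 2 to 6 reads per sample. Of the 8 tested, 6 fell (75%, against 23.5% of all genes), among them Pdgfra (-0.86) and Cd34 (-1.53). Thy1 (0.19) was the 1 that rose (12.5%, against 23.2%). The 2 with the most reads were Col3a1, which fell by 0.32 on the log2 scale, and Col1a1, which did not pass, at -0.05 (adjusted p = 0.378). Smooth muscle and mural markers summed to 2353 to 2481 CPM in control and 2906 to 3113 CPM with miR-182-5p. Acta2 made up 2364 of their control mean of 2433 CPM. Of the 3 tested, Acta2 and Cspg4 rose by 0.29 and 0.50 (66.7%, against 23.2% of all genes). Myh11 did not pass (-0.02), and Rgs5 had 1 to 9 reads per sample. Macrophage markers summed to 14.4 to 15.6 CPM in control and 12.4 to 15.7 CPM with miR-182-5p. Ptprc, Emr1 and Mrc1 were near 0. Of the 4 tested, 1 fell (25%, against 23.5% of all genes). This was Lyz2, at 18 to 34 reads per sample, with a log2 fold change of -0.63 (adjusted p = 0.0324). Csf1r (0.11), Cd68 (-0.24) and Cd14 (-0.59) did not pass. Endothelial markers, with Pecam1 near 0, summed to 8.13 to 9.27 CPM and to 5.09 to 5.74 CPM, and Tek fell by 1.31 on the log2 scale while Kdr (0.43) did not pass. Brown and beige markers, with Ucp1 near 0, summed to 19.9 to 20.9 CPM and to 15.6 to 16.3 CPM, and Cox8b fell by 0.47 while Ppargc1a (-0.08) did not pass. The cultures therefore held messages of both adipocytes and stromal cells, and the part of these markers in the results was not tested.

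Another 49 genes that feed or control the same pathway were listed with results of these data known, and 45 had enough reads. Of these 17 fell (37.8%, against 23.5% of all genes), 6 rose (13.3%, against 23.2%) and 22 did not pass, with a median log2 fold change of -0.095. The genes that supply citrate and NADPH fell in 7 of 9 cases (77.8%). Pcx, pyruvate carboxylase, which refills mitochondrial oxaloacetate for citrate export, was at 1213, 1228 and 1138 CPM in control and at 595, 667 and 702 CPM with miR-182-5p, a log2 fold change of -0.87 (SE 0.050, adjusted p = 7.39e-09). Mdh1, malate dehydrogenase 1, fell by 0.28 on the log2 scale.

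Of the fatty acid transport proteins with synthetase activity, Slc27a1 fell by 0.73 and Slc27a4 by 0.44 on the log2 scale. Agpat9, the older symbol of the glycerol 3-phosphate acyltransferase Gpat3, fell by 0.62. Of the 13 further regulators, 4 fell (30.8%) and 3 rose (23.1%), shares near those of all genes. Nr1h3, which encodes the nuclear receptor LXRα, an activator of Srebf1 transcription, was at 62.5, 56.8 and 60.0 CPM in control and at 25.2, 26.6 and 29.9 CPM with miR-182-5p. Its groups were far apart, with a log2 fold change of -1.13 (SE 0.060, adjusted p = 3.14e-09), next to which Srebf1 changed by -0.17. Srebf2, which encodes the cholesterol-directed SREBP-2, rose by 0.23.

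Promoters are shown because lipogenic promoters are known for an NF-Y box (CCAAT) that works beside SREBP sites. RefSeq windows from 250 bases before to 50 after the start were at hand for 28 of the 35 genes (GRCm38.p6). CCAAT was found on either strand in 19 of 28 (67.9%), against 41.1% of 27025 genes with a window. The E-box CACGTG was found in 6 of 28 (21.4%), against 8.09%. A gene counted if any of its windows held the motif, and the number of windows per gene was not matched. The 27025 genes were not limited to those tested for expression. By direction, CCAAT was in 12 of 17 genes that fell, 3 of 5 that rose and 4 of 6 that did not pass or were not tested. Capitals mark the box, which reads ATTGG where it lies on the other strand, in Fasn (chr11:120824590-120824618, minus strand), Thrsp (chr7:97417586-97417614, minus strand) and Fads3 (chr19:10041458-10041486, plus strand), shown for the most expressed of the genes past both cutoffs and for the genes with the largest fall and the largest rise.
Fasn: cctcggtgtccaATTGGtttcgatgtgga
Thrsp: ggctgtgttgctCCAATggttgggctttg
Fads3: cgccgcgcctggATTGGagcgagagcggg
The part of the box in the changes was not tested, and no binding of a factor was measured.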

How the data were processed

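Raw counts of reads by gene symbol were deposited, 1 list for each of 3 control and 3 miR-182-5p samples. The submitters' processing notes name bcl2fastq, TopHat2, HTSeq and mm9, without versions or strand setting, and 5 tally lines per list (reads outside genes were 12.7% to 13.0%) were left out. Counts were tested as deposited in R 4.3.3 with edgeR 4.0.16 (TMM, filterByExpr with a minimum count of 10, glmQLFit, glmQLFTest), two-sided, with no covariate. The SE was derived from the fit, and intervals are 2 SE. Reads shared with near-identical copies, and antisense reads if strand was ignored, could alter single counts. Same-numbered samples did not deviate together (correlations of -0.18, -0.042 and -0.075), so they were not treated as pairs. With 3 samples a group, this cannot exclude a weak pairing. The genes and lists were chosen with earlier results of these data known, and the test of the 35 is not independent of those. Values per sample are given for genes past both cutoffs, the smallest p of each step, and Fasn, Acaca, Scd1, Dgat2 and Srebf1. Of other pathway genes those past both cutoffs and up to 4 more by p are named (1 of these is not reported here), and of markers the 2 with most reads. Coordinates and sequences come from GENCODE M21 and RefSeq on GRCm38 and were matched by symbol (22169 of 22609 genes), not from the mm9 alignment. Alternatives were DESeq2 1.42.0, limma-voom (limma 3.58.1), other scaling factors and filters, a replicate block and leaving out each sample.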

Additional observations from a re-analysis of the deposited data

How the results depend on the processing

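No gene of the 34 changed sign under any of 14 alternatives, 1 of them (TMM factors without the listed genes) chosen after seeing the data. In 460 of 476 comparisons the side of the adjusted p threshold was kept, in 10 it was lost and in 6 gained. Lost calls were of the small changes: Acss2 (DESeq2, and without control replicate 2), Scd1 (replicate block, and without control replicate 2), Mlxipl (3 left-out samples), Lpin2 (2) and Elovl1 (1). With all samples kept, the count past both cutoffs stayed at 7 in each alternative. With 1 sample left out it ran from 4 to 8 (lower 3 to 7, higher 1), the count past adjusted p from 26 to 30 (lower 21 to 24, higher 4 to 8), and the median log2 fold change from -0.31 to -0.20. The lowest count, 4, came without miR-182-5p replicate 1. Over all genes, 902 to 1011 passed both cutoffs in the fits with 1 sample left out. Fads3, Acsl1, Dgat1 and Thrsp passed both cutoffs in 6 of 6 left-out fits, Fasn in 5, Me1 and Dgat2 in 4, and the cause was not tested. With the replicate block, 925 genes and 7 of the 34 passed both cutoffs and 27 passed adjusted p, against 977, 7 and 28 without it, and no other call of the 34 than that of Scd1 changed. Depth limits Elovl4 and Elovl7, and 3 samples a group limit the tests of shares.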
